A study of Homo sapiens with 6 samples.

Results

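The genes described here encode the proteins of the cytosolic ribosome and their paralogs, in TC28a2 cells, an immortalized human chondrocyte line, treated with the class I histone deacetylase (HDAC) inhibitor mocetinostat. Members were chosen by gene symbol alone (RPL or RPS followed by a number, with RPLP0, RPLP1, RPLP2, and RPSA), without pseudogenes or RPS6 kinases, which gave 84 of the 60623 genes in the table. They comprised 77 core genes, of which 31 belong to the small (40S) subunit and 46 to the large (60S) subunit, 4 paralogs to be compared with them (RPL39L, RPL22L1, RPL3L, and RPS27L), and 3 further paralogs that the symbols also matched (RPL7L1, RPL10L, and RPL26L1). Cells received 2 μM mocetinostat or the solvent DMSO for 24 hours, with n = 3 per condition from independent experiments. No other agent or allele differed between the conditions, and TC28a2 is an immortalized line, not primary cartilage. RNA-Seq libraries were made from total RNA and then depleted of ribosomal RNA sequences, and 82 of the 84 members had enough reads to be tested (all but RPL3L and RPL10L).

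Each ribosome contains a single copy of nearly every core protein, and chondrocytes, like other cells, keep these mRNAs among their most abundant. Most of these mRNAs begin with a cytosine followed by a run of pyrimidines, the 5′ terminal oligopyrimidine (TOP) motif, through which LARP1 and mTOR signaling control their stability and translation. A few core proteins have paralogs that can take their place in the ribosome or have acquired other roles: RPL39L and RPL10L are best known from testis, RPL3L from striated muscle, RPS27L as a p53 target, and RPL7L1 as a relative of an assembly factor of the large subunit.

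The listed start of a gene shows whether a pyrimidine run lies there, as it does for most but not all core genes with a listed start. Each gene was read only at its listed RefSeq start, which need not be the start used in these cells. For RPL10, the window begins at 154398053, inside a gene span that begins at 154389955. On the minus strand, the RPL22 window reaches up to 6199607, inside a gene span that reaches up to 6209389. The RPS29 and RPS27L windows reach up to 49598722 and 63157489, inside spans that reach up to 49599164 and 63158021. The sequences below are 30-base windows around RefSeq starts on GRCh38.p14 (12 bases before the start and 18 from it, 5′ to 3′ on the gene's strand), and capitals mark a pyrimidine run as far as the window reaches. They are shown for core genes with large falls, with a run (RPL22, RPL39, RPS13) and without one (RPS29, RPL10), for core genes that did not pass, with a run (RPS27, RPL28, RPLP2) and without one (RPL11), and for paralogs beside their core genes (RPL26 among them).
RPL22: ttcgctcaCCTCCCTTTCTaactccgctgc
RPL22L1: ggccgtagCTTCCTCTCTgctctcgcggcc
RPL39: ttccgccagCTTCCCTCCTCTTCCTTTCTC
RPS13: cactctcgCTCTCCTTTCgttgcctgatcg
RPS29: cgagcgcgcagctggcagcggtggttgttt
RPL10: ttccactctcagaaatatacgtctgtcaca
RPL11: ctcctggcccataaggccctcggccggaag
RPL26: cagcgtgtagttCTCTTCCCTTTTgcggcc
RPL26L1: cttccaggggtcggcgaacgaaacgcggag
RPS27: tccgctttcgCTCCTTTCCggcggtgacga
RPS27L: ttgatgccgagcgcagatcgcttgcagctt
RPL28: cccctcgCCTTCCTCTTTCCgtctcaggtc
RPLP2: cgtcggcgCCTTCCTTTTCCTCCCTgtcgc
These windows lie at chr1:6199578-6199607 (minus strand) for RPL22, chr3:170870178-170870207 (minus) for RPL22L1, chrX:119791613-119791642 (minus) for RPL39, chr11:17077650-17077679 (minus) for RPS13, chr14:49598693-49598722 (minus) for RPS29, chrX:154398053-154398082 (plus) for RPL10, chr1:23691767-23691796 (plus) for RPL11, chr17:8383176-8383205 (minus) for RPL26, chr5:172958717-172958746 (plus) for RPL26L1, chr1:153990750-153990779 (plus) for RPS27, chr15:63157460-63157489 (minus) for RPS27L, chr19:55385920-55385949 (plus) for RPL28, and chr11:809955-809984 (plus) for RPLP2.

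Core genes fell together by a small amount with TMM scaling, a direction that turned for most of them when counts were scaled to GAPDH. By the quasi-likelihood test of edgeR, adjusted by Benjamini-Hochberg over 13966 genes, 63 of the 77 core genes were lower after mocetinostat at an adjusted p under 0.05, none was higher, and 14 did not pass. Among all genes tested, 31.4% were lower and 32.9% were higher, and among the 2290 genes with a mean of at least 100 CPM (counts scaled to the TMM-adjusted library total), the range in which most core genes lie, 50.7% were lower and 27.1% were higher. The median log2 fold change of the core genes was −0.33, against −0.00 over all genes tested and −0.21 over the genes of at least 100 CPM. The study's threshold adds an absolute log2 fold change over 1. With it, only RPL22 and RPL39 of the core genes were DRGs (2 of 77, against 8.18% of all genes). None was a URG (20.2% of all genes). DRG and URG (downregulated and upregulated gene) here name calls of the edgeR test at that threshold, whereas the study's own lists came from DESeq2. Mocetinostat samples lay below all DMSO samples for 65 core genes, with a share of 32.8% over all genes. The same held for 1164 of the 2290 genes of at least 100 CPM. Because these are bulk samples scaled to their own counts, less RNA per cell and fewer cells with such RNA cannot be told apart, and the direction rests on the scaling: relative to GAPDH, which itself fell by 0.53 on the log2 scale, 37 core genes were higher, 5 were lower, 57 had a log2 fold change above 0, and the median was 0.19. Directions given from here on are with TMM scaling. The distance of the core median from the median of all genes was −0.33 with TMM scaling and −0.34 with GAPDH scaling.

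**Figure D1:**
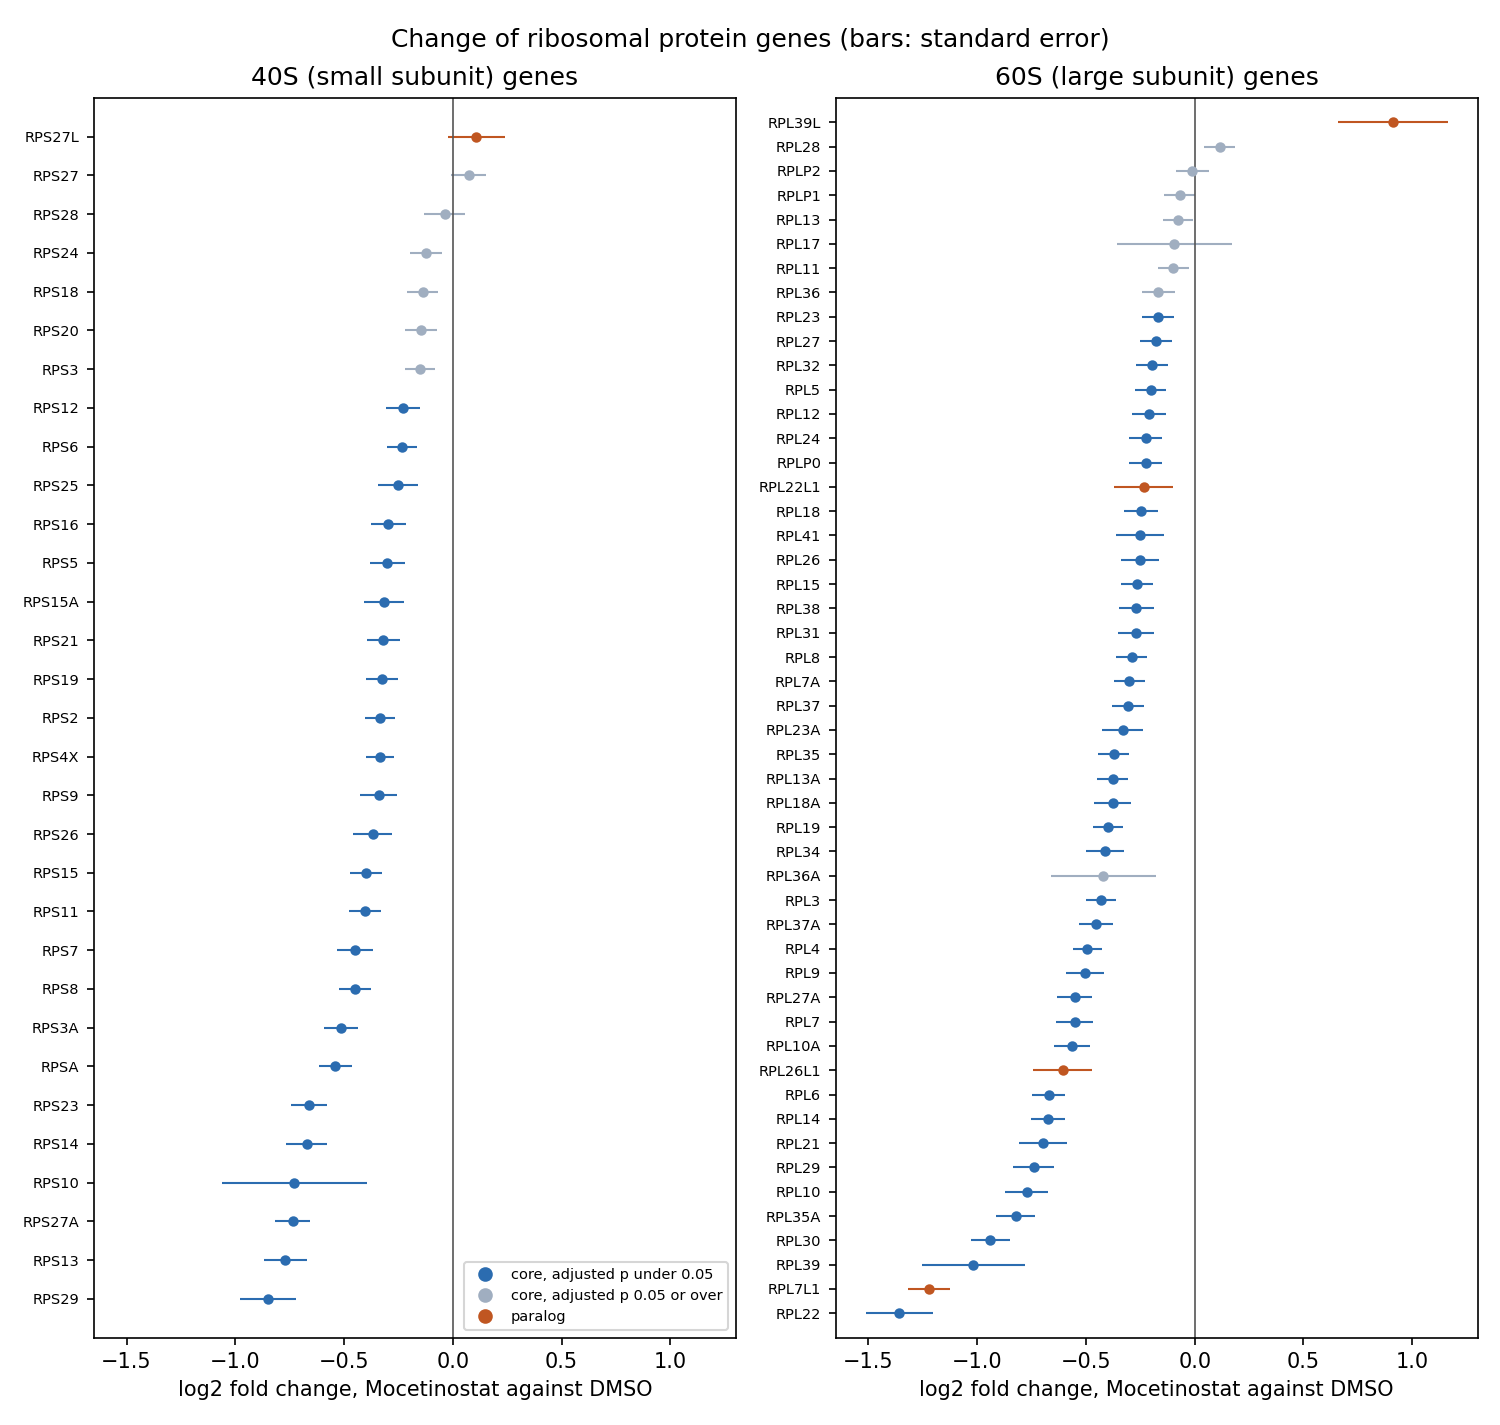
Log2 fold change (x axis) of tested core genes and paralogs (y axis), mocetinostat against DMSO, with its standard error as a bar, for small subunit genes on the left and large subunit genes on the right. Nearly all core genes lie between −0.85 and 0.12, RPL22, RPL39, and RPL30 lie lower, and RPL39L stands alone on the right at 0.91.

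**Figure D2:**
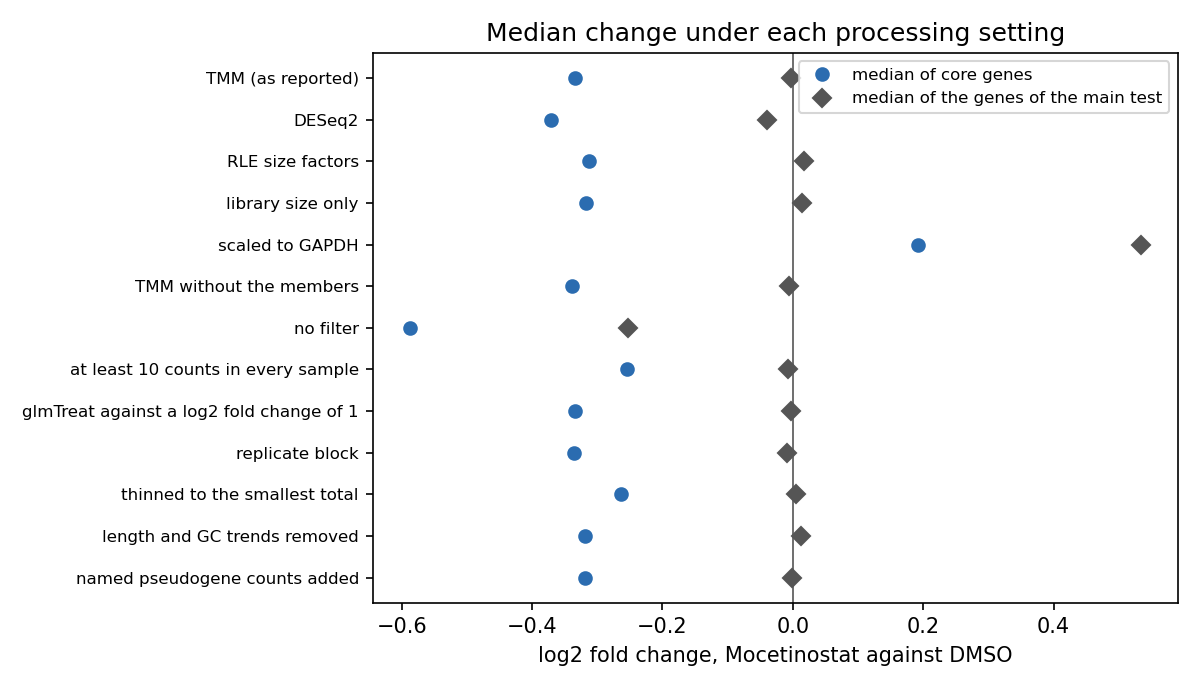
Median log2 fold change (x axis) of the core genes (circles) and of the genes of the main test (diamonds) under each processing setting (y axis). The circle lies to the left of the diamond in every setting, while scaling to GAPDH moves both to the right, to 0.19 and 0.53.

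As a share of all counts, the core genes held 3.50%, 3.42%, and 3.53% with DMSO (samples in the order of their replicate numbers, as in all values that follow). With mocetinostat, they held 2.80%, 2.80%, and 2.82%. The conditions did not overlap, and the spread within each was far smaller than the step between them (3.48% ± 0.0582 and 2.80% ± 0.0122, SD, n = 3 each). Both subunits stepped down, from 1.31% ± 0.0379 to 1.05% ± 0.0120 for the small subunit and from 2.18% ± 0.0513 to 1.76% ± 0.0216 for the large subunit. Small subunit counts made 0.600 ± 0.0242 of large subunit counts with DMSO and 0.595 ± 0.0138 with mocetinostat, so that this ratio differed by less than its spread. By gene, 25 of 31 small subunit genes fell (median −0.34, range −0.85 to 0.07) and 38 of 46 large subunit genes fell (median −0.32, range −1.36 to 0.12).

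**Figure D3:**
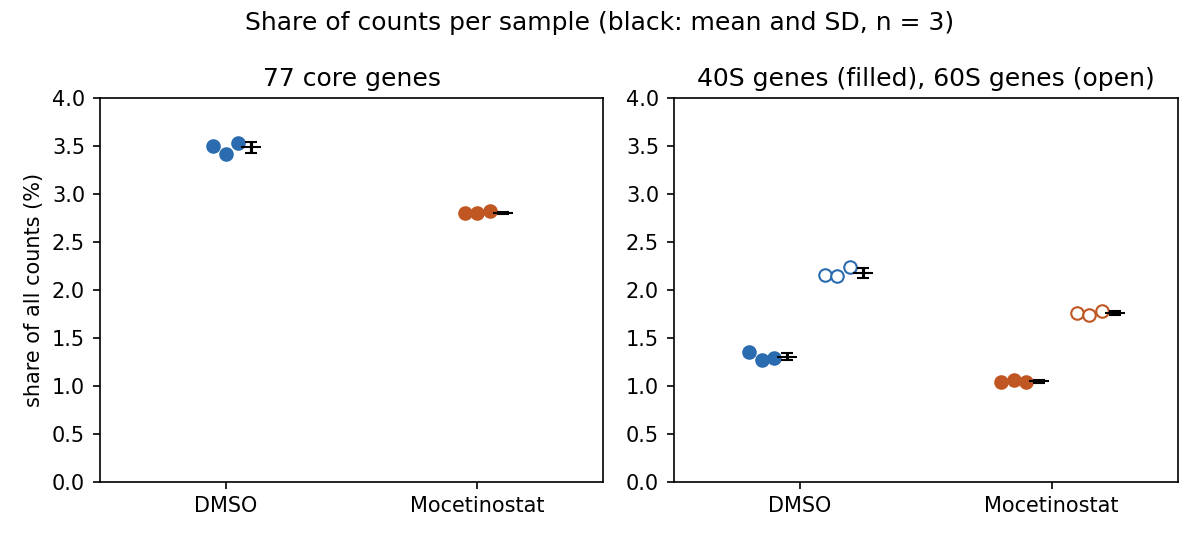
Share of all counts in percent (y axis) by condition (x axis), each point a sample, with mean and SD (n = 3) in black, for all 77 core genes on the left and by subunit on the right. The DMSO samples sit at 3.42% to 3.53% and the mocetinostat samples at 2.80% to 2.82%, without overlap in either subunit.

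RPL22, a protein of the large subunit that also binds structured RNAs, had the largest fall of the core genes. Its level was 70.3, 59.97, and 54.5 CPM in the DMSO samples and 26.6, 29.7, and 16.2 CPM in the mocetinostat samples. Every mocetinostat sample was thus below every DMSO sample, with a log2 fold change of −1.36 (SE 0.15, adjusted p = 4.32e-12 with edgeR). RPL22 (ENSG00000116251) spans chr1:6185020-6209389, and it alone among the core genes still passed when the test was made against a log2 fold change of 1 (glmTreat).

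RPL39, a small protein in the wall of the tunnel through which nascent chains leave the ribosome, was at 26.0, 19.4, and 13.7 CPM with DMSO and 11.3, 10.5, and 7.05 CPM with mocetinostat. The samples did not overlap, although the DMSO samples spread widely and the mocetinostat samples rest on 57, 17, and 17 counts. The log2 fold change was −1.02 (SE 0.24, adjusted p = 0.000142 with edgeR). RPL39 passed the fold threshold of the DRGs only narrowly. Its estimate ranged from −1.25 to −0.75 when a sample was left out and was −0.99 with thinning, so its place among the DRGs was not stable. Of the 9 tested proteins that line the exit tunnel or surround its mouth, 8 fell (88.9%, median −0.37), which is near the 81.8% of all core genes and is no result about the tunnel. RPL17 was the one that did not pass.

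Among the other large subunit genes, RPL30, which contacts the small subunit, was at 286, 257, and 257 CPM with DMSO and 128, 148, and 145 CPM with mocetinostat (log2 fold change −0.94, SE 0.09, adjusted p = 6.27e-15). RPL10, needed for the last steps of large subunit maturation, was at 292, 246, and 215 CPM with DMSO and 157, 165, and 121 CPM with mocetinostat (−0.77, SE 0.10, adjusted p = 1.65e-10). Both were separated by condition in every sample. Both also share exon sequence with genes on the opposite strand, RPL30 with RPL30-AS1 over 21.8% of its exon length and RPL10 with DNASE1L1 over 35.9%, and the counting is not stated to use strand. DNASE1L1 rose by 1.81 on the log2 scale, opposite to RPL10, from a mean of 6.71 to 24.3 CPM. RPL35A (−0.82), RPL29 (−0.74), RPL21 (−0.70), RPL14 (−0.67), and RPL6 (−0.67), chosen after their values were seen, fell by nearly as much.

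In the small subunit, RPS29, a zinc-binding protein of the head, was the lowest, at 149, 106, and 90.0 CPM with DMSO and 63.2, 78.7, and 54.3 CPM with mocetinostat (log2 fold change −0.85, SE 0.13, adjusted p = 2.81e-08). RPS13 followed with 213, 179, and 163 CPM against 112, 108, and 106 CPM (−0.77, SE 0.10, adjusted p = 2.60e-10). RPS27A, made as a fusion with ubiquitin, was at 407, 359, and 355 CPM with DMSO and at 221, 227, and 226 CPM with mocetinostat (−0.74, SE 0.08, adjusted p = 1.45e-12). None of these 3 genes had overlapping conditions. FAU, a small subunit protein made as a fusion with a ubiquitin-like protein, whose symbol lies outside the naming rule, fell as well (−0.60, SE 0.10). RACK1, a scaffold on the small subunit, also fell (−0.49, SE 0.07), whereas RPL36AL did not pass (−0.15, SE 0.10, adjusted p = 0.180).

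A group of core genes did not pass and had estimates near 0. RPL28 was at 541, 619.7, and 584 CPM with DMSO and 642, 648, and 598 CPM with mocetinostat, and RPS27 at 270.5, 257, and 288 CPM against 275, 286, and 299 CPM. They were the only 2 core genes with a log2 fold change above 0 (0.12, SE 0.07, adjusted p = 0.155, and 0.07, SE 0.08, adjusted p = 0.441), and the conditions overlapped for both. Apart from GAPDH scaling, RPL28 passed as higher with thinning (0.22, adjusted p = 0.0133) and when each sample had to hold at least 10 counts (0.19, adjusted p = 0.0164), and RPS27 with length and GC trends removed (0.32, adjusted p = 3.80e-05). RPS28 (−0.04, SE 0.09) and RPS24 (−0.12, SE 0.07) overlapped as well and did not pass; RPS28 shares 17.2% of its exon length with KANK3 on the opposite strand, which rose by 3.73. A p above the threshold does not show that these genes were unchanged.

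The stalk, which recruits and activates translation factors, comprises RPLP0 and copies of RPLP1 and RPLP2. RPLP2 was at 538, 609, and 696 CPM with DMSO and 581, 617, and 633 CPM with mocetinostat (log2 fold change −0.01, SE 0.08, adjusted p = 0.913), and RPLP1 was at 724, 673, and 684 CPM against 676, 619.7, and 685 CPM (−0.07, SE 0.07, adjusted p = 0.395). The base protein RPLP0 fell slightly, from 614, 592, and 549 CPM to 453, 547, and 507 CPM (−0.23, SE 0.07, adjusted p = 0.00632), a call that was lost without mocetinostat replicate 1 (−0.16, adjusted p = 0.116) and when the counts of pseudogenes named after RPLP0 were added (−0.05, adjusted p = 0.525). Of the 2 proteins that join 5S rRNA in the particle that restrains MDM2, RPL5 fell by 0.20 on the log2 scale (SE 0.07, adjusted p = 0.0105), and RPL11 did not pass (−0.10, SE 0.07, adjusted p = 0.231). The RPL5 call was lost with thinning (−0.10, adjusted p = 0.252), when each sample had to hold at least 10 counts (−0.12, adjusted p = 0.123), and with length and GC trends removed (0.0074, adjusted p = 0.925), and RPL11 passed as lower without DMSO replicate 1 (−0.18, adjusted p = 0.00616). RPS6, the target of S6 kinases, fell from 896, 865, and 921 CPM to 767, 746, and 768 CPM (−0.23, SE 0.07, adjusted p = 0.00187), a call that was lost when length and GC trends were removed (−0.093, adjusted p = 0.162).

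Genes mutated in Diamond-Blackfan anemia, an inherited failure of red cell production caused mostly by loss of a single copy of a ribosomal protein gene, were lower in much the same proportion as the family. Of 20 such core genes, 16 fell (80.0%, beside 81.8% of all core genes) and none rose (median −0.29, beside −0.33), so that the count says nothing particular about them, RPS29 being the lowest and RPS27 the highest. The 4 that did not pass were RPS24, RPS27, RPS28, and RPL11.

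Compared per length, the core genes were among the most abundant mRNAs. On the TPM scale, where counts are divided by the length of the canonical transcript, 34 of the 100 highest genes with DMSO were core genes, and when all annotated exons were merged for the length, 16 were. The canonical lengths were chosen after the values were seen, and the order of the levels depends on this choice. With canonical lengths, RPL35 was the highest, with a level of 3786 ± 159 TPM with DMSO and 3027 ± 81.5 TPM with mocetinostat (SD, n = 3 each). RPL19 (3699 ± 189 TPM with DMSO), RPS21 (3329 ± 95.2 TPM), and RPLP2 (3241 ± 387 TPM) followed, of which RPL35 and RPL19 did not differ beyond their spread, nor did RPS21 and RPLP2. With merged exon lengths, RPS12 was the highest (2388 ± 58.5 TPM with DMSO), followed by RPS4X (1974 ± 23.1 TPM), RPS21 (1877 ± 52.0 TPM), and RPL35 (1819 ± 82.4 TPM). At the other end, with canonical lengths, RPS10 (33.4 ± 8.32 TPM), RPL36A (44.1 ± 6.74 TPM), and RPL17 (47.7 ± 7.93 TPM) had much lower levels than proteins needed in equal number. Pseudogenes named after RPL36A, RPS10, and RPL17 held 35.6%, 24.9%, and 17.8% of the reads of gene and pseudogenes together. Same-strand readthrough genes with all of their counts at 0 covered 8.40%, 31.5%, and 24.9% of the exon length of RPL36A, RPS10, and RPL17. How reads that map to several places were treated is not stated, so the levels of these genes, and of others with near-identical copies, are uncertain. Across the 77 core genes, which share libraries and depth, the log2 fold change followed the log2 mean CPM with Pearson's r = 0.44 and Spearman's rho = 0.43, as a description across genes that are not independent, the genes with fewer reads having the larger falls.

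The paralogs did not move as a group. RPL39L was the only tested member of the whole family that rose, with 7.96, 7.91, and 8.11 CPM in the DMSO samples and 14.3, 19.8, and 12.4 CPM in the mocetinostat samples. All mocetinostat samples were above all DMSO samples, although on 72, 32, and 30 counts (log2 fold change 0.91, SE 0.25, adjusted p = 0.0012 with edgeR). When every library was thinned to the depth of the smallest, the estimate was 0.62 and no longer passed (adjusted p = 0.0874). RPL39L (ENSG00000163923) spans chr3:187120948-187180908, on another chromosome than RPL39 (ENSG00000198918, chrX:119786504-119791630).

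RPL22L1 was at 47.2, 48.7, and 49.4 CPM with DMSO and 44.8, 38.4, and 38.1 CPM with mocetinostat, just below in every sample but short of the threshold (log2 fold change −0.23, SE 0.14, adjusted p = 0.125). RPS27L was at 62.1, 50.2, and 44.5 CPM against 58.9, 59.5, and 51.8 CPM, with overlap (0.11, SE 0.13, adjusted p = 0.486). Neither showed a change that its spread could resolve, and the estimate for RPS27L changed sign without DMSO replicate 3 (−0.03). RPL3L was barely detected, with 2, 0, and 1 counts in the DMSO samples and 13, 1, and 3 counts in the mocetinostat samples, and was not tested. The ratio of its pooled CPM was 14.1 (exact 95% interval 4.09 to 75.3, counting error only), and 1 library held most of its reads. RPL10L had 0 counts in every sample, which allows at most 0.133 CPM over the DMSO samples and 0.331 CPM over the mocetinostat samples (3 counts over each group).

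The remaining paralogs fell. RPL7L1 was at 219.7, 221, and 209 CPM with DMSO and 93.2, 81.8, and 102 CPM with mocetinostat, without overlap, and was a DRG (log2 fold change −1.22, SE 0.10, adjusted p = 1.70e-18). RPL26L1 was at 53.3, 65.0, and 67.2 CPM against 40.05, 39.0, and 41.9 CPM (−0.61, SE 0.13, adjusted p = 6.96e-05). Relative to GAPDH, RPL7L1 was still lower, whereas RPL26L1 did not pass (−0.07).

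**Figure D4:**
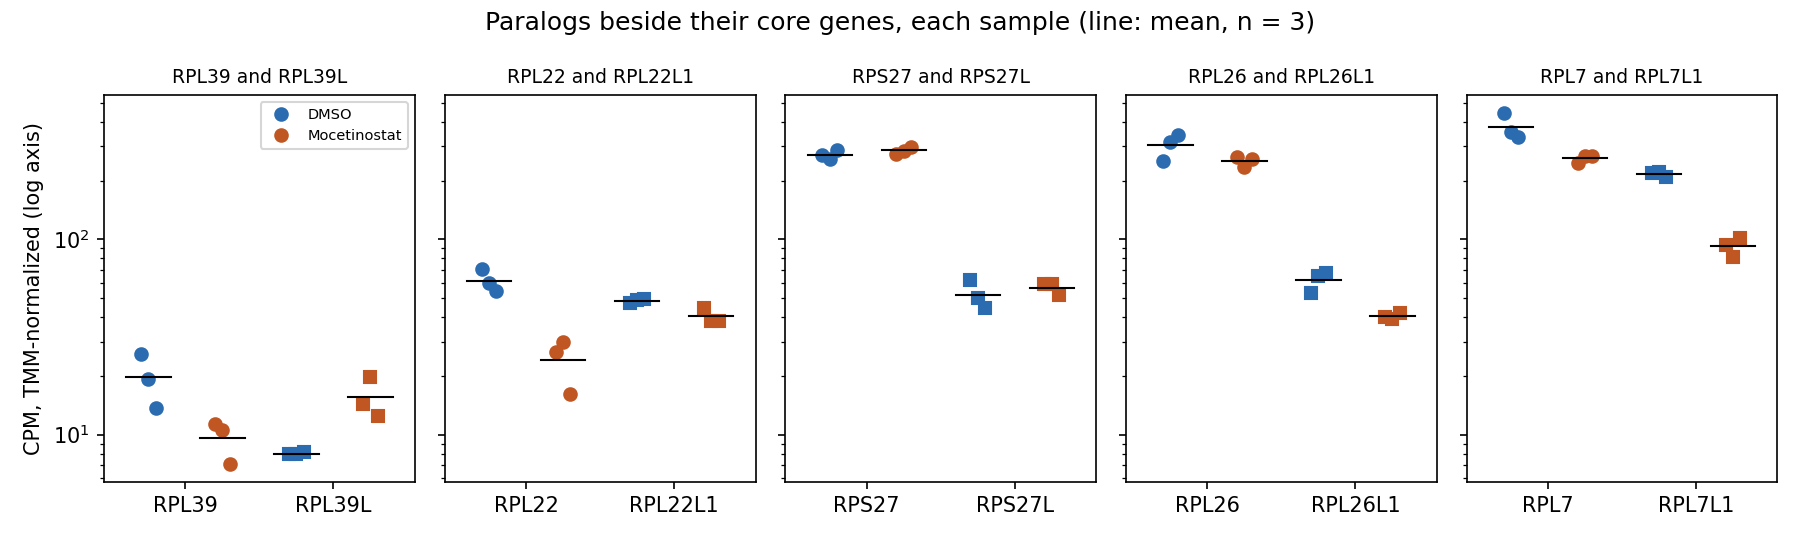
CPM on a log axis (y axis) of each paralog (squares) beside its core gene (circles) in each sample, DMSO in blue and mocetinostat in red, with lines at the means (n = 3). RPL39 and RPL39L change places between conditions, RPL22 drops below RPL22L1, and the other pairs keep their order.

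Setting each paralog against its core gene within a sample removes the scaling of the library. Reads of RPL39L made 23.5%, 29.0%, and 37.2% of the reads of RPL39 and RPL39L together in the DMSO samples and 55.8%, 65.3%, and 63.8% in the mocetinostat samples. RPL39 has 15 pseudogenes named after it and RPL39L has 0. How reads that map to several places were treated is not stated, so the level of this share is uncertain. The log2 ratio of paralog to core gene moved from −1.24 ± 0.47 to 0.68 ± 0.30, a difference of 1.92 (SE 0.32). The conditions were fully separated, and the 2-sided exact permutation test gave p = 0.1, the smallest that 3 against 3 samples allow (0.125 after Benjamini-Hochberg adjustment over 5 pairs).

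For RPL22L1 the share was 40.2%, 44.8%, and 47.5% with DMSO and 62.8%, 56.4%, and 70.2% with mocetinostat, so that the minor copy became the major one in reads in each sample. Its log2 ratio to RPL22 differed by 1.12 (SE 0.28, exact permutation p = 0.1, adjusted 0.125). Of the pair, RPL22 fell and RPL22L1 did not pass. RPS27L made 18.7%, 16.3%, and 13.4% of its pair with DMSO and 17.6%, 17.2%, and 14.8% with mocetinostat, which overlapped (difference in log2 ratio 0.06, SE 0.19, exact permutation p = 0.8). The ratio moved the other way for RPL7L1 to RPL7 (−0.70, SE 0.15) and for RPL26L1 to RPL26 (−0.35, SE 0.05), again without overlap between conditions (exact permutation p = 0.1 and adjusted 0.125 for each).

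Because the copies differ in length, levels were also set side by side per canonical length. RPL39L was at 26.7 ± 0.207 TPM beside 123 ± 39.5 TPM for RPL39 with DMSO, and at 53.8 ± 13.4 TPM beside 62.4 ± 14.9 TPM with mocetinostat, where they did not differ beyond their spread. RPL22L1 was at 62.1 ± 0.881 TPM beside 73.0 ± 10.2 TPM for RPL22 with DMSO, and at 53.7 ± 5.20 TPM beside 29.6 ± 8.79 TPM with mocetinostat. The other paralogs remained far below their core genes on this scale, RPS27L with 20.9 ± 3.77 TPM beside 1885 ± 97.5 TPM for RPS27 with DMSO being the most distant of the tested pairs. For the RPL22 and RPL39 pairs, the order depended on the length used. The levels of RPL22 and RPL39, with 22 and 15 named pseudogenes, are also uncertain because the treatment of reads that map to several places is not stated. With merged exon lengths, RPL22L1 was already above RPL22 with DMSO (94.0 ± 1.59 TPM beside 52.6 ± 7.16 TPM). On that scale, RPL39L was above RPL39 with mocetinostat (60.5 ± 15.2 TPM beside 18.2 ± 4.41 TPM).

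Of the 77 core genes, 62 had an entry in the RefSeq promoter table, and of the 7 paralogs, 5 did (not RPL39L and RPL3L). A pyrimidine run, defined as a C followed by C or T up to a length of at least 6 bases and beginning within 10 bases of the start on the gene's strand, was found in 49 of the 62 core genes (79.0%), against 19.0% of 27305 promoters. Of the paralogs, only RPL22L1 had one, 1 of 5. Within the core genes, a run at the listed start did not separate larger from smaller falls: the median log2 fold change was −0.34 for the 49 with a run and −0.34 for the 13 without, and those with a run covered the range from −1.36 (RPL22) to 0.12 (RPL28). A gene without a run at this start may carry it at another, so the comparison holds for the listed starts only. Over the 300-base windows, on both strands, the ETS-type motif CCGGAAG was found in 33.9% of core promoters and 10.7% of all promoters, AAGATGGC (YY1) in 9.68% and 3.03%, GGGCGG (SP1) in 54.8% and 44.6%, and TATAAA in 8.06% and 12%, and none of these motifs contains another. A match is a description of the letters, and no match says only that they are absent from this window.

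Other mRNAs of the TOP class, most of them translation factors, were lower in the same comparison. Of 17 tested, 14 fell, 1 rose, and 2 did not pass (median −0.48), beside 31.4% lower among all genes and 50.7% among genes of at least 100 CPM. EIF3F, a subunit of the initiation factor eIF3, was the lowest, from 105, 97.2, and 92.0 CPM to 50.0, 50.8, and 44.8 CPM (−1.02, SE 0.12, adjusted p = 1.87e-11). The exception was VIM, the intermediate filament protein of mesenchymal cells, which rose from 1262, 1251, and 1243 CPM to 2308, 2328, and 2175 CPM (0.86, SE 0.06, adjusted p = 1.27e-20). EEF1G was listed with 0 counts in every sample and was not tested. Another gene on the same strand covers 99.7% of its exon length, and how shared reads were counted is not stated. Its counts therefore do not show that it was silent. Starts with a pyrimidine run were found for 8 of the 11 genes of this class in the promoter table (72.7%).

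Factors that carry ribosomal proteins to the nucleolus or into the growing subunit were also lower: 10 of 12 fell and none rose, beside 31.4% lower among all genes and 50.7% among genes of at least 100 CPM, with a median of −0.61. BCCIP, a partner of large subunit proteins, was the lowest, from 111, 106, and 106 CPM to 49.2, 40.3, and 54.3 CPM (−1.15, SE 0.12, adjusted p = 2.26e-13), and NAP1L1 was the highest (−0.10, SE 0.07, adjusted p = 0.187). Of 8 regulators of TOP mRNAs, 5 fell (62.5%) and 1 rose (12.5%), which is no result about the list beside the 50.7% lower and 27.1% higher among genes of at least 100 CPM. RPTOR, the scaffold of mTOR complex 1, fell from 109, 135, and 137 CPM to 46.2, 48.3, and 49.3 CPM (−1.41, SE 0.12, adjusted p = 3.43e-17), and EIF4EBP2, a repressor of cap-dependent initiation, rose from 118, 111, and 94.8 CPM to 219.9, 242, and 199 CPM (1.02, SE 0.10, adjusted p = 2.01e-15).

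Totals ranged from 1619344 to 11031132 counts per sample and were lower with mocetinostat in the median, so that low genes were measured less precisely there. The cell label was checked against 9 chondrocyte markers: SOX9 was well expressed (95.5 to 122 CPM with DMSO), COL2A1 and ACAN were low, and COL9A1 and SOX6 had at most 7 counts in any sample. All 7 markers with enough reads rose with mocetinostat, beside 32.9% of all genes tested, from SOX9 (0.77, SE 0.10) to SOX5 (3.77, SE 0.69, from 1, 0, and 5 counts to 18, 10, and 7 counts). SOX5 and COMP (3, 0, and 8 counts with DMSO) passed the filter through the mocetinostat samples alone, so they could enter the count only as rises. COL2A1 (26, 7, and 19 counts with DMSO) and MATN3 (53, 17, and 13) also needed mocetinostat samples to pass it. The count of rises is therefore no fair comparison with the share among all genes. The part of the markers in the lower share of ribosomal protein mRNAs was not tested.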

How the data were processed

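RNA-Seq counts of TC28a2 cells treated with mocetinostat or DMSO (n = 3 each) were analysed. The authors deposited raw read counts per gene, without normalization: per the study's methods, adapters were trimmed, rRNA reads were removed with SortMeRNA, and single reads of 100 bases were aligned to GRCh38 with STAR 2.6.1d and assigned with featureCounts 1.6.4. Strand and multi-mapping settings are not stated in the sources used here.

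Counts were scaled by TMM, filtered by filterByExpr (minimum count 10), and tested with edgeR 4.0.16 (limma 3.58.1, R 4.3.3) in a quasi-likelihood model with treatment only. Benjamini-Hochberg adjustment covered all 13966 genes tested. SE is the log2 fold change divided by the root of the F statistic. The edgeR p-values set a change against the spread between these samples, drawn strongly toward a spread shared across genes. The median prior degrees of freedom were 67.4, so they do not rest on each gene's own spread alone. Replicate pairs differed by a chi-square per degree of freedom of 1.96 to 7.19, more than sampling noise, so each sample counted as a replicate. Ratios of paralog to core gene used raw counts with 0.5 added to each. Positions, exon overlaps, and lengths are from GENCODE 44, to which 99.5% of identifiers matched, and promoters from RefSeq on GRCh38.p14. The fits were tested on simulated counts. Python 3.11.15, pandas 2.3.3, and matplotlib 3.10.9 were used for summaries. Intervals and limits cover counting error only.

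The members and lists were chosen with earlier results of these data known. Genes named were the 7 paralogs and their core genes, in each subunit the 3 highest and 3 lowest by log2 fold change and the 2 highest by length-scaled level, the stalk and 5S genes, RPS6, ribosomal proteins with other symbols, and the highest and lowest of each other list. Results for 2 genes are not reported here. Other genes named were chosen after their values were seen, as was the use of canonical transcript lengths for levels.

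Alternatives were DESeq2 1.42.0, RLE factors, library size only, GAPDH scaling, TMM without the members, no filter, glmTreat, at least 10 counts in every sample, a block on the replicate number, thinning, removal of length and GC trends (mgcv 1.9.3), each sample left out, and, chosen after seeing the data, the counts of named pseudogenes added.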

Additional observations from a re-analysis of the deposited data

How the results depend on the processing

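The 63 core genes called lower became 57 to 67 when 1 sample was left out (median −0.38 to −0.34) and 48 to 74 under the other settings, apart from 5 relative to GAPDH and 1 with glmTreat (RPL22). Calls lost included RPS10 and RPL23 without DMSO replicate 1; RPS10 without DMSO replicate 2; RPL12, RPL26, RPL27, RPL32, and RPL41 without DMSO replicate 3; RPS10, RPL23, RPL27, RPL41, and RPLP0 without mocetinostat replicate 1; RPS10, RPS25, RPL12, RPL23, and RPL41 without mocetinostat replicate 2; and RPL23 and RPL41 without mocetinostat replicate 3. Core genes called higher were 37 relative to GAPDH and 1 each with at least 10 counts in every sample (RPL28), with thinning (RPL28), and with length and GC trends removed (RPS27). RPS12, RPL5, RPL12, RPL18, RPL23, RPL24, RPL26, RPL27, RPL32, and RPLP0 lost their calls both with thinning and with at least 10 counts. With length and GC trends removed, RPS6, RPS10, RPS12, RPS21, RPS25, RPL5, RPL24, RPL26, RPL27, and RPL41 lost theirs. The core median was −0.37 with DESeq2, −0.25 with at least 10 counts, −0.59 without a filter, where the median of all genes moved to −0.25, and −0.26 with thinning. Same-numbered samples did not deviate together (correlations −0.0162 to 0.0116), and with the replicate number as a block 61 core genes were lower.

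Scaling to GAPDH turned the direction of the core median (0.19) and of RPL22L1 (0.30), RPL3 (0.10), RPL26 (0.27), RPS28 (0.50), RPS24 (0.41), RPS12 (0.30), RPS4X (0.19), RPLP2 (0.51), RPLP1 (0.46), RPL35 (0.16), RPL13A (0.15), RPLP0 (0.30), RPL5 (0.33), RPL11 (0.43), RPS6 (0.29), RPL36AL (0.38), RACK1 (0.041), RPL17 (0.44), and NAP1L1 (0.42), and RPS27L then passed (0.65). Removing length and GC trends turned RPL22L1 (0.069), RPS12 (0.12), RPLP2 (0.073), RPL5 (0.0074), RPL36AL (0.37), and RPL17 (0.087). Without a filter, RPS27L (−0.14), RPS27 (−0.18), and RPL28 (−0.14) turned, and RPL22L1 passed (−0.48). RPLP2 turned with RLE factors (0.010), library size only (0.0077), at least 10 counts (0.068), and thinning (0.068), RPS28 with at least 10 counts (0.042) and thinning (0.086), RPLP1 with at least 10 counts (0.0095), and NAP1L1 with thinning (0.0046). With 1 sample left out, RPS27L ranged from −0.026 (without DMSO replicate 3) to 0.25, RPLP2 from −0.12 to 0.066 (without DMSO replicate 3), and RPS28 from −0.12 to 0.046 and RPL17 from −0.33 to 0.30 (both highest without mocetinostat replicate 1). The log2 ratio of RPS27L to RPS27 ranged from −0.10 to 0.19 over the samples left out. RPL39L no longer passed with thinning (0.62) or glmTreat (0.91). RPL3L passed with DESeq2 (3.63) and without a filter (3.22), and its reads were too few for a value under the other settings. The cause of each was not tested.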

Other observations

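The table also held 1143 rows for pseudogenes named after the members. Of these, 489 had 0 counts in every sample and 27 had enough reads to be tested. At an adjusted p under 0.05 with edgeR's quasi-likelihood test, 6 fell and 3 rose (background 31.4% lower and 32.9% higher). Pseudogene rows held 0.0468% ± 0.00118 of all counts with DMSO and 0.0489% ± 0.00104 with mocetinostat (SD, n = 3 each), while the core genes stepped down. This sum includes RPLP0P2, which went from 15, 12, and 9 counts to 320, 88, and 172 counts. The sum therefore does not show that the other pseudogenes held their share. The median log2 fold change of the 27 tested pseudogenes was −0.32.

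RPLP0P2, typed as a transcribed processed pseudogene at chr11:61615036-61639449 (plus strand), had 15, 12, and 9 counts in the DMSO samples and 320, 88, and 172 counts in the mocetinostat samples. Its log2 fold change was 5.29 (SE 0.23, adjusted p = 1.96e-32), from a mean of 1.73 to 63.1 CPM, while RPLP0 fell by 0.23 on the log2 scale. It was chosen after its values were seen, and whether its reads come from RPLP0 was not tested. Its DMSO counts were low, and it had enough reads to be tested only with the mocetinostat samples.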
